A study of Mus musculus with 3 samples.

Results

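Transcripts of 40 cell cycle genes were followed in circulating blood cells of mice carrying an FGFR1-driven B cell leukemia. The genes were a list written by hand, 40 of the 32285 genes counted, and all 40 were found by symbol in the gene table. They comprise 20 genes read mostly in G2 phase and mitosis (mitotic members), 18 genes of DNA replication and its preparation (S-phase members), and Stmn1 and Hmgb2, which belong to neither group. UMIs of each gene were summed per library and cell class and scaled to CPM, the UMIs of a gene in each 1000000 UMIs of that class.

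A dividing cell first copies its DNA and then separates the copies. In S phase the minichromosome maintenance (MCM) helicase, loaded onto DNA by Cdc6 and Cdt1, opens the double helix, the clamp encoded by Pcna holds the polymerases on it, and ribonucleotide reductase and thymidylate synthase supply nucleotides. In mitosis Cdk1, paired with cyclins A and B, and the Plk1 and Aurora kinases build the spindle, and the Bub1 and Bub1b checkpoint holds back Cdc20, which with Ube2c directs the destruction of cyclins. Most leukocytes in blood, including mature neutrophils, mature B cells and resting T cells, are out of the cycle, whereas B cell precursors divide in bone marrow. Transcripts of S phase are largely driven by E2F factors, and those of mitosis through CCAAT boxes and the cell cycle genes homology region (CHR).

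Peripheral blood was taken from naive wild-type (WT) Balb/C mice and from mice of the same strain at day 11 (D11) and day 14 (D14) after engraftment of BBC2 cells, with 1 library for each condition. BBC2 is a stem cell leukemia and lymphoma (SCLL) line that arose from stem cells given the BCR-FGFR1 fusion kinase by a virus, carries a GFP reporter and gives a pro-B cell leukemia. The recipients were young adult females. They kept their own blood cells, so each leukemic library holds host and BBC2-derived cells, and the number of mice behind each library is not given in the sources used here. Red cells were lysed, dead cells were removed with a kit, and cells were captured for 3′ sequencing with the 10x Genomics v3 chemistry. With 1 library per condition there is no replicate error and no test was made: every interval below is an exact 95% interval that covers counting error only, and condition and library cannot be told apart.

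The naive, D11 and D14 tables held 5386, 8536 and 9337 barcodes, of which 3811, 4567 and 4414 passed the cell filter (200 genes or more, and mitochondrial genes in no more than 10% of UMIs), with median depths of 6031 to 6781 UMIs. Hemoglobin genes took 11.2%, 55.9% and 22.5% of the UMIs of the 3 libraries, and pairs of libraries shared 3 to 5 barcodes. Classes were set with marker gates that used no member of the list, and 84.4% to 87.0% of kept barcodes fell into 1 class. The class called leukemia cells here needed at least 2 of 9 early B cell markers such as Igll1 and Vpreb1, which encode the surrogate light chain, and at least 1 of 6 B lineage markers. GFP was not used. It held 5, 116 and 793 barcodes of the naive, D11 and D14 libraries, those of D11 and D14 being 2.54% and 17.97% of kept barcodes. In these cells the early markers summed to 2279 CPM at D11 and 1775 CPM at D14, against 38.1 CPM in mature B cells of the naive library. The 5 mature B cell markers, of which the gate allows fewer than 2, were near 0, at 8.17 and 10.5 CPM. Both lists are part of the gate, so these levels are no separate evidence of what the cells are. Immature neutrophils, chosen by the secondary granule genes Ltf, Camp and Ngp, numbered 92 at D11 and 168 at D14 (13 in the naive library, below the 20 needed for a value). T cells numbered 1233, 248 and 107 and natural killer (NK) cells 199, 194 and 50 in the naive, D11 and D14 libraries.

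The promoters of 5 members are shown to set the regulatory letters of the 2 groups side by side. They are RefSeq sequences on build GRCm38.p6, from 250 bases before to 50 bases after the annotated start, written 5′ to 3′ on the strand of the gene, with capitals marking CHR letters (TTTGAA, and TTCGAA as its variant), CCAAT boxes and E2F letters (TTTGGCGC, TTTCCCGC, TTTGCCGC or TTTCGCGC), each searched on both strands. Mki67, the proliferation antigen Ki-67, Cdk1, the kinase of mitotic entry, and Kif23, a kinesin of the dividing midbody, stand for the mitotic group, and the helicase subunits Mcm6 and Mcm7 for the S-phase group.
Mki67, chr7:135716330-135716629, minus strand: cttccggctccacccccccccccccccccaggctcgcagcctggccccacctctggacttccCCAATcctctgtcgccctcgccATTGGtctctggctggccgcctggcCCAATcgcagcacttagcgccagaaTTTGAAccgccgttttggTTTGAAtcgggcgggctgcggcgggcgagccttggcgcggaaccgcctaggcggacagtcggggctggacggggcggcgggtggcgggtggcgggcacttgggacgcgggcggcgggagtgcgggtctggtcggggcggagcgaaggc
Cdk1, chr10:69352863-69353162, minus strand: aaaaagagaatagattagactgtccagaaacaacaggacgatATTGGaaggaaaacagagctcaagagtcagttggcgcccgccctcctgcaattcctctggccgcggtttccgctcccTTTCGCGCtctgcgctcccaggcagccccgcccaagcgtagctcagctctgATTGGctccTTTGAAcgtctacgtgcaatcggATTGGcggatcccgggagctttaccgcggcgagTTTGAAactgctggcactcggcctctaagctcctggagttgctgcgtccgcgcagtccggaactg
Kif23, chr9:61946750-61947049, minus strand: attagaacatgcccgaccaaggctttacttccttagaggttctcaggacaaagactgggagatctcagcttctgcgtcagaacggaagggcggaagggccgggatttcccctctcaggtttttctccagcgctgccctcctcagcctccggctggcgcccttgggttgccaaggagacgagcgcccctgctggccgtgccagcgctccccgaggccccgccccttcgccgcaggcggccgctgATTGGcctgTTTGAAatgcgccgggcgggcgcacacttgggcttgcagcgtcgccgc
Mcm6, chr1:128359656-128359955, minus strand: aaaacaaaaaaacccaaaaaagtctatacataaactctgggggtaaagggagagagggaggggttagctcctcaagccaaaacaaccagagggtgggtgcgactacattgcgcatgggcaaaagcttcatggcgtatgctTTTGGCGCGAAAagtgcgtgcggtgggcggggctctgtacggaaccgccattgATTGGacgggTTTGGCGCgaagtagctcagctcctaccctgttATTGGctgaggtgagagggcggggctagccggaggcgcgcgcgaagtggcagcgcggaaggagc
Mcm7, chr5:138171834-138172133, minus strand: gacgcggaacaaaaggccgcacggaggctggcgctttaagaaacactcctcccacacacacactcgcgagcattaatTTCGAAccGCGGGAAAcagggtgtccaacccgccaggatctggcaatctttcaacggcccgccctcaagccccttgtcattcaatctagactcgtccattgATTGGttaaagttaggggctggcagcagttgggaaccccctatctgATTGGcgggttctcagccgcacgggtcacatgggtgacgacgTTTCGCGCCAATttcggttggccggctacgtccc
The table of promoters matched 17 of the 20 mitotic members, 15 of the 18 S-phase members (17 promoters, since Mcm7 and Uhrf1 have a pair each) and 1 of the other 2. CHR letters stood in 13 of 17 mitotic promoters and in 2 of 17 S-phase promoters, against 19.23% of all 32851 promoters. E2F letters stood in 8 of 17 S-phase promoters and 1 of 17 mitotic promoters, that of Cdk1, against 2.265% of all promoters. CCAAT letters were frequent in both groups, in 15 of 17 mitotic and 11 of 17 S-phase promoters, against 37.41% of all promoters. A match is a run of letters and not a measured binding site.

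Every one of the 40 members was read in leukemia cells at both days, and each was above 10 CPM. The mitotic members summed to 2611 CPM (2556 to 2667) at D11 and 2252 CPM (2233 to 2271) at D14, and the S-phase members to 2249 CPM (2198 to 2301) and 1462 CPM (1447 to 1477). Because the libraries count transcript ends, no scaling by gene length was made, and levels of different genes also carry differences in how well each end was captured. Mki67 had the highest level of the mitotic members, 536 CPM (511 to 561) at D11 and 415 CPM (407 to 424) at D14, followed by Top2a, the topoisomerase that untangles sister chromosomes, at 402 and 302 CPM. The lowest was Aurka, the centrosomal Aurora kinase, at 31.5 and 22.1 CPM. Levels thus spanned more than 1 order of magnitude within the mitotic group, as the plot of each member's level by library shows.

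**Figure D1:**
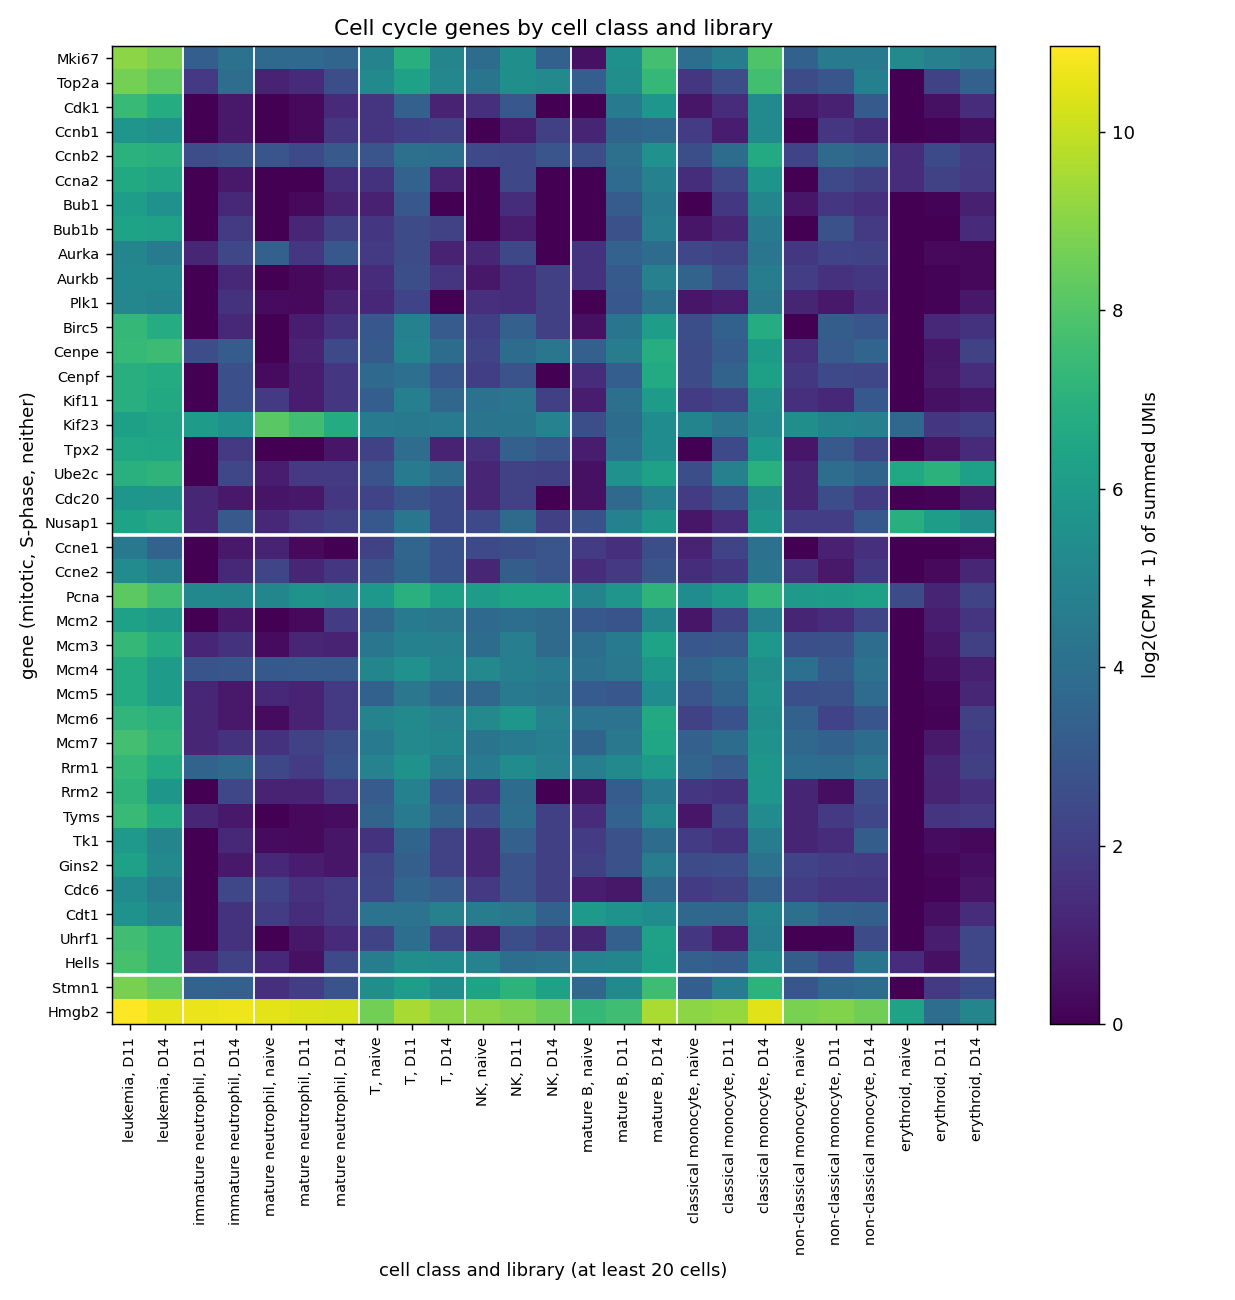
Colour map of the level of each member (rows, mitotic then S-phase then neither) as log2(CPM + 1) of summed UMIs in each class of at least 20 cells and each library (columns), from dark for 0 to yellow for the highest. In leukemia cells Mki67 stood at 536 CPM at D11 and 415 CPM at D14, and the lowest mitotic member, Aurka, at 31.5 and 22.1 CPM.

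By role, the cyclins and their kinase were read at middle levels in leukemia cells. Cdk1 stood at 168 CPM at D11 and 111 CPM at D14, cyclin B2 (Ccnb2) at 127 and 121 CPM, cyclin A2 (Ccna2) at 100.2 and 82.7 CPM, and cyclin B1 (Ccnb1) at 51.1 and 46.3 CPM. Ccnb2 was therefore read at more UMIs than Ccnb1 at both days. Of the mitotic kinases, Aurkb of the chromosomal passenger complex stood at 33.9 and 33.998 CPM and Plk1, which acts at centrosomes and kinetochores, at 32.99 and 29.5 CPM. Birc5 (survivin), the passenger partner of Aurkb, stood at 156 and 110.2 CPM.

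Spindle, kinetochore and checkpoint genes filled the middle of the range. The kinetochore motor Cenpe was read at 160.4 CPM at D11 and 183 CPM at D14 and the kinetochore protein Cenpf at 115 and 107 CPM. The spindle motor Kif11 stood at 119.5 and 101 CPM, Kif23 at 74.5 and 84.5 CPM, the microtubule nucleator Tpx2 at 91.4 and 89.2 CPM, and the spindle protein Nusap1 at 81.7 and 98.4 CPM. The checkpoint genes Bub1 and Bub1b stood at 69.01 and 82.02 CPM at D11 and 46.1 and 76.9 CPM at D14. For cyclin destruction, Ube2c stood at 125 and 139 CPM and Cdc20 at 53.6 and 52.3 CPM. Of these genes, Cenpe, Ube2c, Kif23 and Nusap1 had more CPM at D14 than at D11.

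Among S-phase members Pcna was highest in leukemia cells, at 294 CPM (275 to 313) at D11 and 193 CPM (188 to 199) at D14. The 6 helicase subunits Mcm2 to Mcm7 lay between 76.6 CPM (Mcm2) and 202 CPM (Mcm7) at D11, and between 60.8 and 145 CPM at D14, also from Mcm2 to Mcm7. Of the nucleotide supply genes, thymidylate synthase (Tyms) stood at 171 and 103 CPM, the reductase subunits Rrm1 at 159 and 103 CPM and Rrm2 at 137 and 54.6 CPM, and thymidine kinase (Tk1) at 59.9 and 31.001 CPM. Every member named so far in this group had fewer CPM at D14 than at D11. Uhrf1, which carries DNA methylation through replication, stood at 195 and 144 CPM and the chromatin helicase Hells at 215 and 142 CPM. The loading factors were lower, with Cdc6 at 38.1 and 24.1 CPM and Cdt1 at 47.2 and 30.8 CPM, as were the G1/S cyclins Ccne1, at 20.9 and 10.1 CPM, and Ccne2, at 38.4 and 25.6 CPM. Gins2, a subunit of the replicative helicase, stood at 75.7 and 36.1 CPM.

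The levels of the 3 highest members of each group are given in every class, with values always in the order naive, D11 and D14. Mki67 was found at 8.82 and 16.7 CPM in immature neutrophils of D11 and D14, at 28.8, 117 and 30.7 CPM in T cells and at 13.8, 43.6 and 9.49 CPM in NK cells. Mature B cells held 0.401, 44.4 and 203 CPM and classical monocytes 14.4, 23.5 and 247 CPM. Non-classical monocytes, mature neutrophils and erythroid barcodes held 9.66, 21.5 and 22.6 CPM, 12.5, 12.5 and 10.99 CPM and 34.5, 26.6 and 20.04 CPM. Outside leukemia cells the highest values were thus those of D11 T cells and of D14 mature B cells and classical monocytes. On the CPM scale leukemia cells stood above all of them. The D14 mature B cells with at least 3 mitotic members also held 1372 CPM of the early B cell markers, against 1775 CPM in leukemia cells of D14 and 38.1 CPM in naive mature B cells, so whether their values come from host cells was not tested, here and for the members that follow.

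Top2a was found at 2.52 and 14.04 CPM in immature neutrophils of D11 and D14, and T and NK cells held 35.8, 77.04 and 32.995 CPM and 18.2, 43.6 and 34.8 CPM of it. Levels of 8.82, 41.9 and 155 CPM were found in mature B cells and of 2.31, 4.94 and 198 CPM in classical monocytes. Values for non-classical monocytes were 4.83, 6.62 and 25.5 CPM, for mature neutrophils 1.04, 1.49 and 5.21 CPM and for erythroid barcodes 0, 3.45 and 9.30 CPM. After leukemia cells, D14 classical monocytes held the most Top2a. Cenpe was at 5.04 and 8.02 CPM in immature neutrophils, 7.61, 30.2 and 13.7 CPM in T cells, 3.76, 13.7 and 18.98 CPM in NK cells and 9.23, 24.4 and 112 CPM in mature B cells. It reached 4.62, 8.23 and 61.95 CPM in classical and 1.81, 7.95 and 10.97 CPM in non-classical monocytes, 0, 1.06 and 4.34 CPM in mature neutrophils and 0, 0.563 and 3.53 CPM in erythroid barcodes. Here D14 mature B cells came next after leukemia cells.

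Pcna, which is used in DNA repair as well as replication, was found in every class of at least 20 cells. Immature neutrophils held 34.02 and 32.1 CPM at D11 and D14, T cells 56.8, 124 and 75.1 CPM, NK cells 64.003, 81.1 and 82.2 CPM and mature B cells 30.1, 51.9 and 138 CPM. It was read at 39.9, 60.5 and 146 CPM in classical monocytes, 58.6, 65.9 and 71.5 CPM in non-classical monocytes, 32.1, 48.5 and 40.8 CPM in mature neutrophils and 4.93, 1.20 and 3.69 CPM in erythroid barcodes. Outside erythroid barcodes the lowest of these Pcna values was 30.1 CPM, in naive mature B cells. Mcm7 was read at 1.26 and 2.01 CPM in immature neutrophils, 22.8, 34.4 and 31.9 CPM in T cells, 17.6, 22.2 and 25.3 CPM in NK cells and 10.4, 20.01 and 85.96 CPM in mature B cells. Classical and non-classical monocytes held 9.25, 13.6 and 47.8 CPM and 12.1, 9.60 and 13.7 CPM of Mcm7, mature neutrophils 2.08, 3.40 and 5.21 CPM and erythroid barcodes 0, 0.704 and 2.89 CPM. Lymphocytes thus held more Mcm7 than granulocytes in each library.

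Uhrf1 was near 0 outside leukemia cells in most classes. Immature neutrophils held 0 and 2.01 CPM at D11 and D14, T cells 3.76, 14.6 and 3.41 CPM, NK cells 0.627, 5.12 and 3.16 CPM and mature B cells 1.20, 9.38 and 76.5 CPM. Its level was 2.31, 0.823 and 25.96 CPM in classical monocytes, 0, 0 and 4.89 CPM in non-classical monocytes, 0, 0.638 and 1.45 CPM in mature neutrophils and 0, 0.774 and 4.01 CPM in erythroid barcodes. The highest values outside leukemia cells were again those of mature B cells and classical monocytes at D14, with the early B cell markers of those mature B cells as given for Mki67. Stmn1 encodes stathmin, which destabilises microtubules, and stood at 425 CPM at D11 and 307 CPM at D14 in leukemia cells and at 10.1 and 9.36 CPM in immature neutrophils. The other classes held 41.5, 69.7 and 42.1 CPM (T cells), 80.9, 136 and 75.9 CPM (NK cells), 12.03, 37.5 and 188 CPM (mature B cells), 8.67, 23.1 and 136 CPM (classical monocytes), 6.64, 11.6 and 13.9 CPM (non-classical monocytes), 1.82, 2.98 and 6.07 CPM (mature neutrophils) and 0, 2.68 and 4.49 CPM (erythroid barcodes). NK cells had more Stmn1 than T cells in each library.

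Hmgb2 encodes a chromatin protein abundant in both cycling and myeloid cells, and its classes were ordered differently. Leukemia cells held 1996 CPM at D11 and 1485 CPM at D14, immature neutrophils 1584 and 1628 CPM, and mature neutrophils 1455, 1336 and 1242 CPM. Lower values were found in T cells, 398, 732 and 537 CPM, NK cells, 536, 461 and 361 CPM, mature B cells, 158, 194 and 769 CPM, and erythroid barcodes, 78.9, 14.7 and 30.8 CPM. Classical monocytes stood at 529.9, 603 and 1408 CPM and non-classical monocytes at 438, 479 and 388 CPM. Mature neutrophils were among the classes with the most Hmgb2.

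The comparison of leukemia cells with immature neutrophils asked how far their cell cycle transcripts stood from those of the least mature neutrophils in the same blood. Nearly all members were higher in leukemia cells at both days. Summed mitotic members stood at 2611 CPM against 88.2 CPM at D11, a ratio of 29.6 (23.4 to 38.02), and at 2252 against 130.4 CPM at D14, a ratio of 17.3 (15.01 to 19.99). At D14, 1 of the 168 immature neutrophils held 29.7% of the mitotic UMIs of its class, which the interval does not reflect. Summed S-phase members stood at 2249 against 57.96 CPM, 38.8 (29.1 to 53.1), and at 1462 against 77.5 CPM, 18.9 (15.7 to 22.8). Of the 40 members, 38 were called at least 2-fold higher in leukemia cells at D11 and 38 at D14, and 0 lower, on the log2(CPM + 1) scale, which understates the ratio of low genes. Among all genes at or above 10 CPM in either class, 55.4% were called higher at D11 and 57.1% at D14, so being higher was in itself common here. The members' median log2 ratio was 5.85 at D11 and 4.34 at D14, against 1.36 and 1.46 over all these genes.

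The 2 members not called higher, at D11 and at D14, were Kif23 and Hmgb2. Where the neutrophils had no UMI of a gene, the ratio is a lower bound set against 3 UMIs over the class, and members were ranked on the log2(CPM + 1) scale here and in the other comparisons. At D11 the mitotic extremes were Kif23, 1.18-fold (0.869 to 1.64) and Aurka, 24.98-fold (4.39 to 996) at the low end, and Birc5, at least 41.4-fold and Cdk1, at least 44.4-fold at the high end. S-phase members at D11 began at Pcna, 8.63-fold (5.89 to 13.2) and Rrm1, 15.7-fold (7.93 to 36.6) and ended with Rrm2, at least 36.4-fold and Uhrf1, at least 51.5-fold. Immature neutrophils of D11 had 0 UMIs of 12 of the 20 mitotic and 9 of the 18 S-phase members. On the log2(CPM + 1) scale such members made up the high end. The largest measured ratios were above the bounds printed for them, at 159-fold for Top2a and 170-fold for Hells. At D14 the mitotic members ran from Kif23, 1.86-fold (1.46 to 2.40) and Aurka, 5.52-fold (2.52 to 15.1) to Ccna2, 124-fold (22.2 to 4889) and Cdk1, 166-fold (29.8 to 6565). The S-phase members ran from Cdc6, 5.999-fold (2.74 to 16.4) and Pcna, 6.03-fold (4.54 to 8.19) to Tyms, 154-fold (27.6 to 6082) and Mcm6, 187-fold (33.5 to 7373). Kif23 and Pcna were thus among the lowest ratios at both days. Without Kif23 the D11 mitotic ratio was 101, and with TMM scaling it was 16.8.

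**Figure D2:**
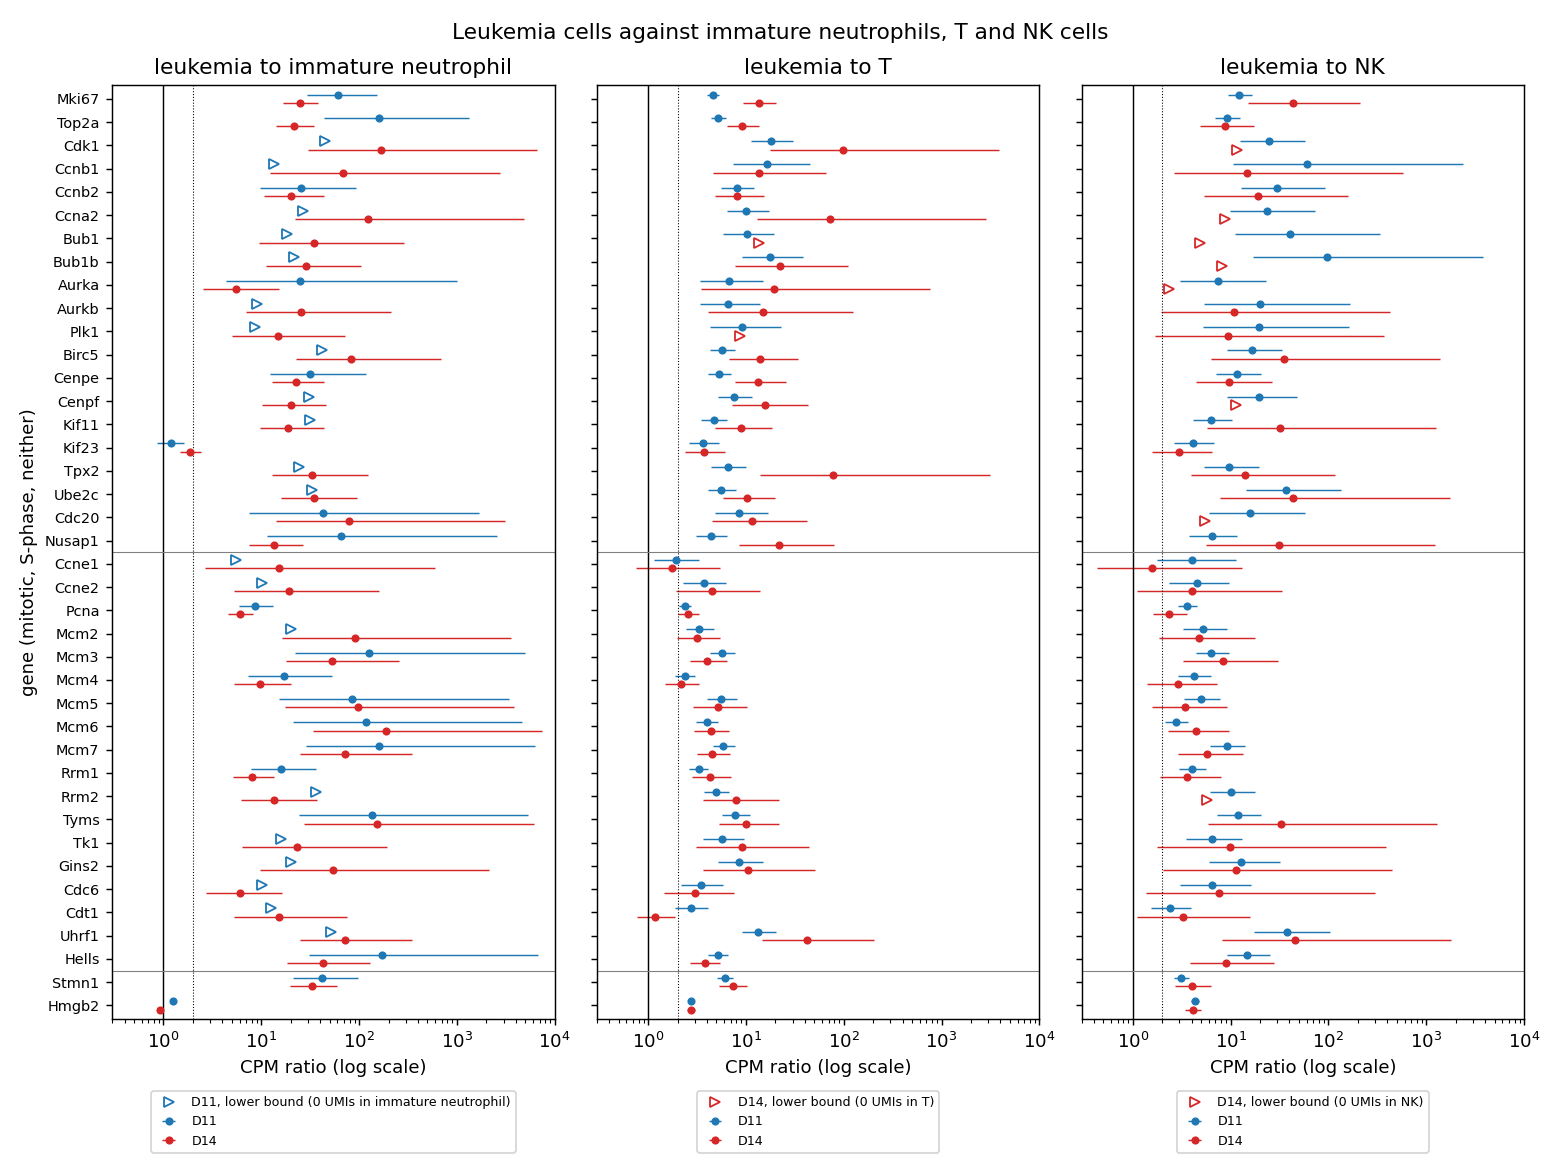
Ratio of leukemia cells to immature neutrophils, T cells and NK cells (CPM over CPM, log axis) for each member at D11 and D14, with 95% intervals for counting error and lower bounds where the second class had no UMI. The dotted line marks 2-fold. Of the mitotic members with UMIs in both classes, Kif23 lay lowest in each comparison, from 1.18 to 4.15.

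Against T cells, leukemia cells again held more of nearly all members, by smaller ratios. The mitotic sum was 437 CPM in T cells at D11 and 177 CPM at D14, giving ratios of 5.98 (5.57 to 6.43) and 12.7 (10.8 to 14.9). A single T cell held 34.1% of the mitotic UMIs of its class at D11 and 21.2% at D14, which the intervals do not reflect. The S-phase sum in T cells was 533 and 357 CPM, giving 4.22 (3.95 to 4.51) and 4.09 (3.66 to 4.59). At least 2-fold higher in leukemia cells were 39 of 40 members at D11 and 38 at D14, where 27.1% and 27.6% of all genes were, and 0 were lower. Their median log2 ratio was 2.43 and 3.06, against 0.17 and 0.18 over all genes. All 20 mitotic members were called at both days, and the uncalled ones were S-phase members. The mitotic members at D11 ran from Kif23, 3.67-fold (2.61 to 5.28) and Nusap1, 4.36-fold (3.07 to 6.36) up to Bub1b, 17.5-fold (9.09 to 38.7) and Cdk1, 17.9-fold (11.2 to 30.5). At the ends of the S-phase group lay Ccne1, 1.91-fold (1.16 to 3.28) and Mcm4, 2.38-fold (1.88 to 3.04), and Gins2, 8.55-fold (5.23 to 14.9) and Uhrf1, 13.4-fold (9.15 to 20.3). At D14 the spread was wider. Its mitotic ends were Kif23, 3.71-fold (2.40 to 6.09) and Ccnb2, 8.18-fold (4.78 to 15.4), and Bub1, at least 13.5-fold and Cdk1, 97.6-fold (17.5 to 3857). S-phase members went from Cdt1, 1.18-fold (0.777 to 1.87) and Ccne1, 1.77-fold (0.748 to 5.49), whose intervals include 1, to Tyms, 10.05-fold (5.28 to 22.002) and Uhrf1, 42.3-fold (14.5 to 205). With the mean of per-cell CPM in both classes, which weights each cell equally, the D11 mitotic ratio was 12.7.

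NK cells gave a similar picture. Their mitotic sum was 208 CPM at D11 and 127 CPM at D14, which put leukemia cells 12.5 (11.03 to 14.3) times and 17.8 (13.1 to 24.9) times higher. A single NK cell held 33.6% of the mitotic UMIs of its class at D11 and 15% at D14, which the intervals do not reflect. The S-phase sum of NK cells was 384 and 285 CPM, for ratios of 5.85 (5.32 to 6.45) and 5.14 (4.18 to 6.39). Members called higher in leukemia cells were 40 of 40 at D11 and 39 at D14, with 27.2% and 29% of all genes called, and 0 were lower. The median log2 ratio of the members was 3.16 and 3.12, and that of all genes 0.09 and 0.18. Of the mitotic members at D11, Kif23, 4.15-fold (2.66 to 6.83) and Nusap1, 6.38-fold (3.80 to 11.6) lay lowest and Ube2c, 36.7-fold (14.2 to 135) and Bub1b, 96.05-fold (17.1 to 3808) highest. Bub1b had 1 UMI in NK cells of D11, so its ratio is wide. Of the S-phase members, Cdt1, 2.40-fold (1.55 to 3.90) and Mcm6, 2.78-fold (2.13 to 3.69) lay lowest and Hells, 14.8-fold (9.17 to 25.5) and Uhrf1, 37.98-fold (17.4 to 104) highest. At D14 the mitotic ends were Kif23, 2.97-fold (1.56 to 6.50) and Plk1, 9.32-fold (1.67 to 369), against Cenpf, at least 11.3-fold and Cdk1, at least 11.7-fold. The S-phase ends were Ccne1, 1.59-fold (0.436 to 13.2) and Pcna, 2.35-fold (1.60 to 3.60), against Uhrf1, 45.7-fold (8.19 to 1804) and Rrm2, at least 5.76-fold. With 50 NK cells at D14 these bounds are limited by depth, and the largest measured mitotic ratio was that of Ube2c, 43.96-fold. When the barcodes with the highest Scrublet doublet scores, in a number set in advance, were left out, the D11 mitotic ratio to NK cells was 32.0.

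The 2 members of neither group differed from each other. Stmn1 was higher in leukemia cells in every comparison, by 42.2-fold (21.4 to 97.9) and 32.8-fold (19.5 to 60.1) over immature neutrophils at D11 and D14, 6.10-fold (5.10 to 7.33) and 7.30-fold (5.29 to 10.4) over T cells, and 3.13-fold (2.66 to 3.71) and 4.05-fold (2.72 to 6.32) over NK cells. Hmgb2 was higher than in T cells, 2.73-fold (2.57 to 2.89) and 2.77-fold (2.53 to 3.04), and than in NK cells, 4.33-fold (3.96 to 4.73) and 4.12-fold (3.43 to 4.996). Against immature neutrophils the D11 and D14 ratios of Hmgb2, 1.26 (1.19 to 1.34) and 0.912 (0.875 to 0.951), lay on either side of 1.

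Summed levels do not tell how many cells carry the transcripts, so cells with UMIs of at least 3 mitotic members were counted. In leukemia cells this held for 84.5% (95% interval 76.6% to 90.5%, 98 of 116 cells) at D11 and 81.8% (95% interval 78.98% to 84.5%, 649 of 793 cells) at D14. Leukemia cells were also deep, with medians of 24862 and 29719 UMIs, against 8016.5 and 8807 in immature neutrophils, 7176.5 and 7604 in T cells and 5316 and 5847.5 in NK cells, so each cell was thinned to 1000 UMIs. At that depth the share was 32.7% (95% interval 24.2% to 42.2%, 37 of 113 cells) at D11, with 3 shallower cells left out, and 28.8% (95% interval 25.6% to 32.1%, 226 of 786 cells) at D14, with 7 left out. Immature neutrophils, which follow the last divisions of their lineage, gave 0 of 92 cells at D11, which allows up to 3.93% by the exact interval, and 0.595% (95% interval 0.0151% to 3.27%, 1 of 168 cells) at D14. T cells gave 0.406%, 1.61% and 0%, and NK cells 0%, 1.06% and 0% in the naive, D11 and D14 libraries. Mature neutrophils gave 0%, 0% and 0% at median depths of 3516, 3316 and 4462.5 UMIs. The leukemia shares lay far above each of these.

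**Figure D3:**
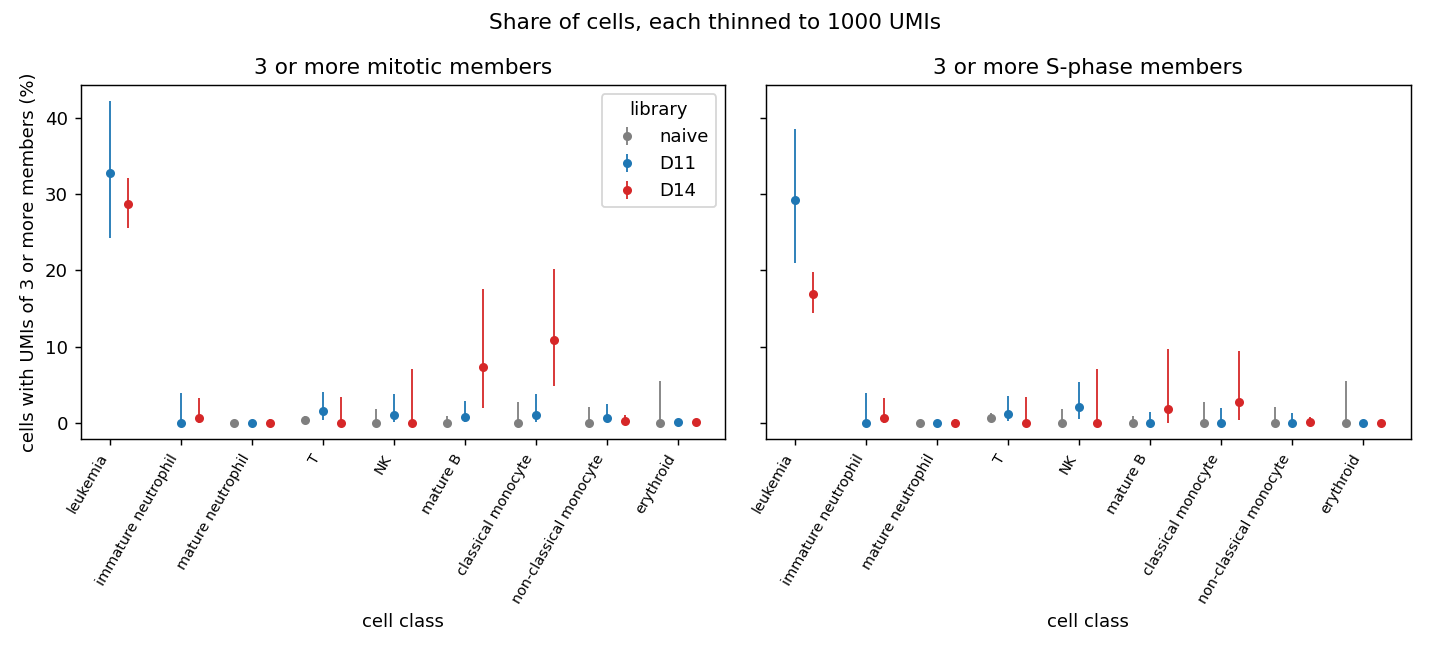
Share of cells (%) with UMIs of at least 3 mitotic or at least 3 S-phase members after thinning each cell to 1000 UMIs, by class and library, with 95% Clopper-Pearson intervals. Leukemia cells stood at 32.7% at D11 and 28.8% at D14 for mitotic members, and classical monocytes at 10.8% at D14.

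For S-phase members the thinned share in leukemia cells was 29.2% (95% interval 21.03% to 38.5%, 33 of 113 cells) at D11 and 16.9% (95% interval 14.4% to 19.7%, 133 of 786 cells) at D14. These intervals, like the mitotic ones, count cells within 1 library per day, so they cannot test a difference between the days. Unthinned, 80.2% of leukemia cells at D11 and 77.7% at D14 had at least 3 members of both groups, 6.90% and 14.4% of S phase alone, 4.31% and 4.16% of mitosis alone, and 8.62% and 3.78% of neither. The median leukemia cell held 12 of the 20 mitotic members at D11 (quartiles 6 and 17) and 9 at D14 (quartiles 4 and 16), and 64.7% and 49.4% held at least 10. Cells with no mitotic member made up 6.90% at D11 and 3.15% at D14. Without thinning, leukemia cells thus ranged from none to all 20 mitotic members within 1 library. Depth differed along this range. Cells with fewer than 3 mitotic members had medians of 3997 UMIs at D11 and 19833 UMIs at D14. The other leukemia cells had medians of 30985.5 and 32958 UMIs, and the part of depth in the range was not tested. For Mki67 alone, a UMI was found in 76.7% and 74.4% of leukemia cells, or 34.5% and 26.1% at 1000 UMIs. Immature neutrophils gave 1.09% and 1.79% at that depth, and mature neutrophils 1.55% and 1.27%.

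The 2 leukemic libraries were then compared within leukemia cells. S-phase members were lower at D14 than at D11 as a group and one by one: their sum was 1462 against 2249 CPM, a ratio of 0.650 (0.634 to 0.667), and the intervals of all 18 lay below 1. The mitotic sum differed less, 2252 against 2611 CPM, 0.862 (0.843 to 0.882), with 8 intervals below 1, 3 above and 9 including it. Intervals were not counted in this way over all genes, so the interval counts of both groups, here and under TMM scaling, lack a background share. The median log2 ratio was -0.61 for S-phase members and -0.12 for mitotic members, against 0.01 over all genes. Of the 40 members, Rrm2, 54.6 against 137 CPM and 0.397 (0.357 to 0.443), and Gins2, 36.1 against 75.7 CPM and 0.478 (0.415 to 0.552), were past 2-fold, which is 2 of 40 members lower where 0.811% of all genes were called lower, and 0 were higher where 2.63% of all genes were. The ratio of Ccne1, 0.482 (0.367 to 0.639), was below 0.5 and just inside 2-fold on the log2(CPM + 1) scale. The helicase subunits Mcm6, 0.846 (0.769 to 0.933), and Mcm2, 0.794 (0.694 to 0.910), were the S-phase members nearest to 1. With TMM scaling, which was added after the data were seen, the S-phase ratio was 0.729 (0.711 to 0.747) and the mitotic ratio 0.967 (0.945 to 0.989). Under it 16 of the 18 S-phase intervals lay below 1, those of Mcm2 and Mcm6 included it, and of the mitotic intervals 6 lay below 1, 4 above and 10 included it.

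**Figure D4:**
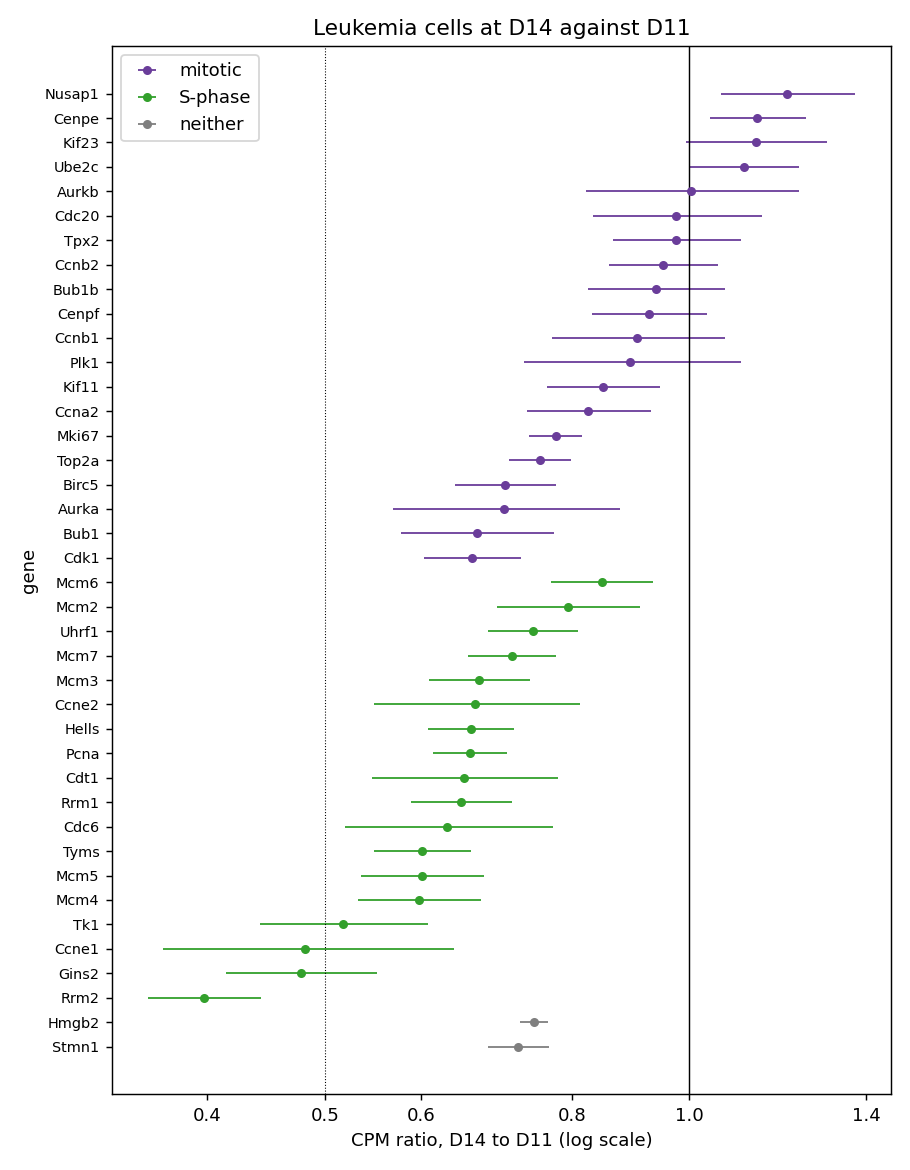
Ratio of D14 to D11 in leukemia cells for each member (CPM over CPM), with 95% intervals for counting error, mitotic and S-phase members apart. All 18 S-phase members lay below 1, from 0.397 for Rrm2 to 0.846 for Mcm6, and the mitotic members from 0.661 for Cdk1 to 1.20 for Nusap1.

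Mitotic members moved unequally between the days. Cdk1 and the checkpoint kinase Bub1 had the lowest D14 to D11 ratios, 0.661 (0.603 to 0.726) and 0.668 (0.579 to 0.773), and Mki67 stood at 0.776 (0.737 to 0.816). Cenpe and Nusap1 had the highest, 1.14 (1.04 to 1.25) and 1.20 (1.06 to 1.37), and Ube2c, 1.11 (1.002 to 1.23), was the third with an interval above 1, by its lower bound just so. These 3 genes act at the kinetochore, on the spindle and in cyclin destruction. Stmn1 and Hmgb2 were lower at D14, 0.722 (0.682 to 0.765) and 0.744 (0.725 to 0.764). With 116 and 793 cells from 1 library each, the spread between animals was not measured.

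Other genes of the pathway were read from lists of the same kind. Of 16 further mitotic regulators, such as the transcription factors Foxm1 and Mybl2, 16 were called higher in leukemia cells than in immature neutrophils at D11 and 16 at D14, 13 and 14 of 16 than in T cells, and 14 and 13 than in NK cells. Of all genes, 55.4%, 27.1% and 27.2% were called higher in these comparisons at D11 and 57.1%, 27.6% and 29% at D14. The exception in direction was Cdc25b, a phosphatase that activates Cdk1, called lower than in T cells at both days (26.6 against 82.2 CPM at D11, 27.8 against 56.9 CPM at D14). Of 16 further replication genes, 16, 16 and 15 were called higher than in immature neutrophils, T cells and NK cells at D11, and 16, 15 and 14 at D14, with 0 lower, against the same shares of all genes. Against T cells at D11 and D14 the median log2 ratio was 2.10 and 3.16 for the mitotic regulators and 2.42 and 2.59 for the replication genes. Between the days, 0 of either 16 were called in either direction in leukemia cells.

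The genes that act in G1, before the decision to replicate, were more divided. Of 14 cyclins, kinases and E2F or Myc factors, 13 reached 10 CPM, and 11, 9 and 10 of these were called higher in leukemia cells than in immature neutrophils, T cells and NK cells at D11, and 10, 9 and 11 at D14. The shares of all genes called higher were 55.4%, 27.1% and 27.2% at D11 and 57.1%, 27.6% and 29% at D14. The median log2 ratio of these 13 to T cells was 2.51 at D11 and 2.90 at D14. Cdk6, a partner of D-type cyclins, stood at 869 CPM in leukemia cells and 174 CPM in T cells at D11, and Cdk4, the other such kinase, at 329.9 and 34.9 CPM. Cyclin D3 (Ccnd3) stood the other way. It was called lower than in T cells (598 against 1575 CPM at D11, 649.9 against 1757 CPM at D14) and also lower than in NK cells at both days, and the factor E2f2 was lower than in immature neutrophils at D14 (52.3 against 109 CPM). Cyclin D2 (Ccnd2) was the 1 gene of this list called between the days, 243 CPM at D11 and 499 CPM at D14, a ratio of 2.05 (1.91 to 2.21), where 2.63% of all genes were called higher at D14.

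Genes that brake the cycle or keep cells quiescent went both ways. Of 15, 14 reached 10 CPM, and at D11 6, 4 and 4 were called higher and 5, 5 and 5 lower in leukemia cells than in immature neutrophils, T cells and NK cells. At D14 the counts were 5, 4 and 3 higher and 5, 5 and 5 lower. Of all genes, 55.4%, 27.1% and 27.2% were called higher at D11 and 57.1%, 27.6% and 29% at D14, so among these 14 genes the share called higher was near or below the background in each. Called lower were 20%, 20.1% and 21.9% of all genes at D11 and 17.8%, 18.3% and 21.1% at D14, and the list's median log2 ratio to T cells was -0.60 at D11 and -0.42 at D14. Lower in each of the 6 comparisons were Cdkn1b (p27), an inhibitor of cyclin-dependent kinases, the antiproliferative genes Btg1 and Btg2, and Klf2, a factor of quiescent lymphocytes. Cdkn1b stood at 27.8 CPM in leukemia cells and 211 CPM in T cells at D11, and at 31.7 and 206 CPM at D14. Higher in each of the 6 were Cdkn2a, which encodes the inhibitors p16 and p19Arf, and Cdkn2b (p15). Cdkn2a stood at 419.8 CPM at D11 and 731 CPM at D14 in leukemia cells, against 5.21 and 9.10 CPM in T cells, so this inhibitor was among the genes with more UMIs in the class that also held most of the 40 members. Between the days, Klf2 (39.3 CPM at D11, 99.4 CPM at D14) and Cdkn2b (11.2 and 24.3 CPM) were called higher at D14, as were 2.63% of all genes.

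Over all classes of at least 20 cells, leukemia cells held the highest CPM of 37 of the 40 members at D11, each with an interval above the next class. At D14 they held the highest CPM of 35, 26 of them with such an interval. How often leukemia cells ranked highest over all genes was not counted, so these counts have no background share beside them. In the naive library, where no leukemia class could be formed, T cells were highest for 17 members and NK cells for 10, but 4 and 2 of these had an interval above the next class. The exceptions at D11 were Kif23, highest in mature neutrophils, Ube2c, highest in erythroid barcodes (130.4 against 125 CPM in leukemia cells), and Cdt1, highest in mature B cells (48.8 against 47.2 CPM). The ratio of Ube2c was 1.04 (0.935 to 1.16) and that of Cdt1 1.03 (0.777 to 1.36), so on the CPM scale neither differed from leukemia cells beyond counting error. The Ube2c ratio depends strongly on scaling, since the D11 TMM factors were 0.0443 for erythroid barcodes and 1.78 for leukemia cells. Other ranks that set leukemia cells against erythroid barcodes share this limit. Among them at D11 are Nusap1, 81.7 against 68.7 CPM, and Mki67, 536 against 26.6 CPM. Classes were not ranked with TMM scaling. A UMI of Ube2c was found in 56.6% of D11 erythroid barcodes and 50.9% of D11 leukemia cells. At D14 they were Kif23 in mature neutrophils, Hmgb2 in immature neutrophils (1628 against 1485 CPM), Ccne1 and Birc5 in classical monocytes (16.5 against 10.1 CPM and 111 against 110.2 CPM) and Cdt1 in mature B cells (39.8 against 30.8 CPM). Of these, the ratios of Birc5, 1.01 (0.863 to 1.17), and Cdt1, 1.30 (0.909 to 1.79), include 1, and that of Ccne1, 1.64 (1.07 to 2.43), does not.

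Kif23, whose protein bundles microtubules in the midbody at the end of division, had its own pattern. Mature neutrophils held 282, 194 and 106 CPM in the naive, D11 and D14 libraries, immature neutrophils 62.999 and 45.5 CPM at D11 and D14, and leukemia cells 74.5 and 84.5 CPM. At least 1 UMI was found in 52.6%, 41.99% and 34.7% of mature neutrophils, and 88.4%, 90.6% and 75.5% of those cells had no other mitotic member. In leukemia cells the corresponding share was 0% at D11 and 2.51% at D14. These shares were not thinned to 1 depth. Leukemia cells had medians of 24862 and 29719 UMIs, against 3516, 3316 and 4462.5 in mature neutrophils, and a second member is found more easily in deeper cells. The gene lies at chr9:61915905-61946774 on the minus strand (build mm10), and no other counted gene overlaps it on that strand. Kif23 makes up most of the mitotic sum of mature neutrophils, 317, 227 and 168 CPM, which was 35.2, 32.5 and 61.9 CPM without it.

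Erythroid barcodes, red cell remnants and young red cells rich in hemoglobin, held few of the mitotic members above 10 CPM. Hemoglobin genes took at least 20% of the UMIs of each such barcode, which lowers the CPM of other genes. Ube2c stood at 93.7, 130.4 and 71.99 CPM, Nusap1 at 115, 68.7 and 43.5 CPM and Mki67 at 34.5, 26.6 and 20.04 CPM in the naive, D11 and D14 libraries, while the S-phase members summed to 6.58, 10.5 and 37.04 CPM. Of the 20 mitotic members, 4, 3 and 3 were above 10 CPM in these barcodes, the fourth in the naive library being Kif23 at 11.5 CPM, and 14 had no UMI in the 65 naive ones. Ube2c overlaps Tnnc2, and Nusap1 overlaps Oip5, on the opposite strand. Unthinned, 147 of 1292 D11 erythroid barcodes (11.4%) had UMIs of at least 3 mitotic members, and 0.155% did at 1000 UMIs, many of which are hemoglobin.

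**Figure D5:**
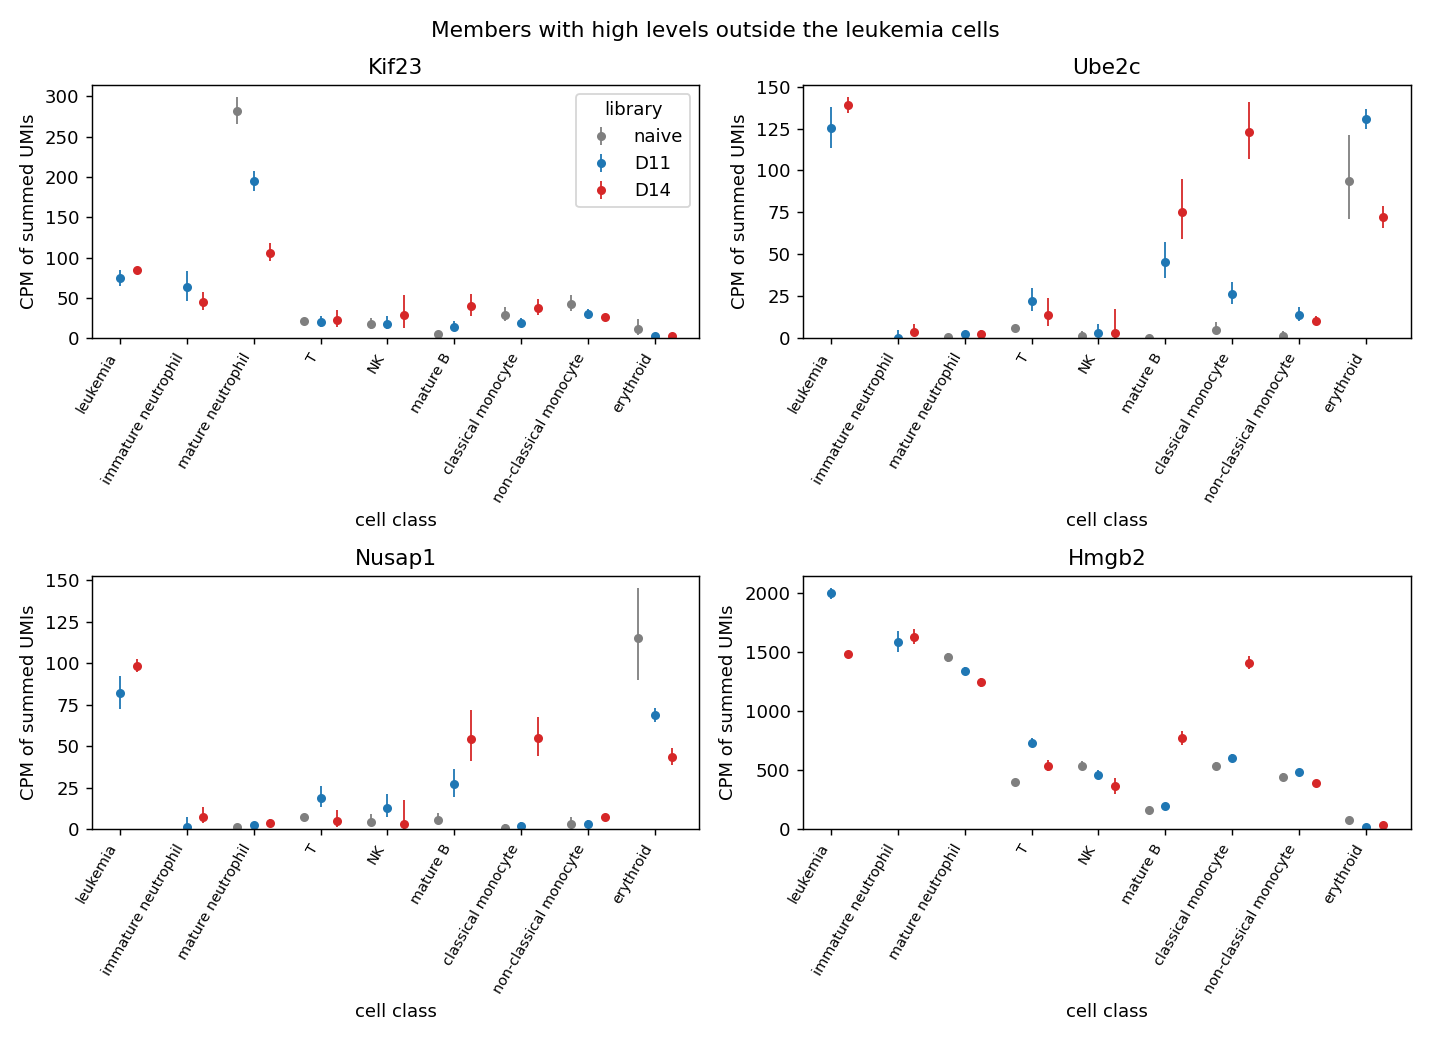
Level (CPM of summed UMIs) of Kif23, Ube2c, Nusap1 and Hmgb2, one panel each, by class and library, with 95% intervals for counting error. Kif23 stood at 282, 194 and 106 CPM in mature neutrophils of the naive, D11 and D14 libraries and at 74.5 and 84.5 CPM in leukemia cells of D11 and D14.

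Host lymphocytes were compared with their own class in the naive library. In T cells at D11 the mitotic sum was 437 against 163 CPM, a ratio of 2.67 (2.46 to 2.90), the S-phase ratio was 1.84 (1.72 to 1.98), and 16 of 30 members at or above 10 CPM were called higher, where 4.91% of all genes were. Of the members called, Tpx2, 4.11 (2.43 to 6.87), and Tk1, 5.08 (2.66 to 9.59), had the largest ratios of their groups. Few cells carried this: the 14 T cells with at least 3 mitotic members held 81.4% of the mitotic UMIs and 1 cell held 34.1%. With Scrublet doublets removed from both libraries, a setting added after the data were seen, the ratios were 1.91 (1.74 to 2.10) and 1.25 (1.15 to 1.36). Cdkn2a, which leukemia cells held at 419.8 and 731 CPM at D11 and D14, stood at 0.513, 5.21 and 9.10 CPM in T cells of the naive, D11 and D14 libraries, and its part in the result was not tested. At D14 the T cell mitotic sum was 177 CPM, 1.09 (0.917 to 1.28) relative to naive, and 2 of 21 members were called higher (6.51% of all genes). NK cells had a mitotic ratio of 2.20 (1.79 to 2.71) at D11 while at D14 it was 1.34 (0.918 to 1.90). Of 20 NK members tested at D11, 6 were called higher (2.15% of all genes), and of 17 at D14, 1 higher (6.57%) and 2 lower (8.02%). In NK cells of D11, 6 cells held 68.03% of the mitotic UMIs. With Scrublet doublets removed from both libraries, their mitotic sum at D11 was 82.7 against 93.7 CPM and the ratio 0.883 (0.674 to 1.15), so the higher value at D11 was lost, and the S-phase ratio was 1.01 (0.869 to 1.17).

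Classical monocytes stood apart at D14. At D11, 4 of 14 members tested were called higher than in naive (1.48% of all genes). Their mitotic sum was 98.2, 149 and 1390.1 CPM in the naive, D11 and D14 libraries, a D14 to naive ratio of 14.2 (12.1 to 16.6), and the S-phase ratio was 5.78 (5.01 to 6.71). Of 39 members tested, 38 were called higher, where 7.37% of all genes were. Top2a stood at 85.8 (33.2 to 317), Tyms at 65.4 (11.3 to 2621) times the naive level and Tpx2 at least 32.3-fold higher, while Kif23 was the member not called, 1.28 (0.873 to 1.89). At least 3 mitotic members were found in 58.1% (95% interval 46.1% to 69.5%, 43 of 74 cells) of D14 classical monocytes, or 10.8% (95% interval 4.78% to 20.2%, 8 of 74 cells) at 1000 UMIs, against 0% and 1.06% in the naive and D11 libraries. The median depth of the class was 13037, 12676 and 21825 UMIs. At D14 the class held 74 cells, and 1 cell carried 19.7% of its mitotic UMIs.

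Markers of other cells were read in the same monocytes. The 43 cells with at least 3 mitotic members held 6762 CPM of the classical monocyte list and the other 31 held 5509 CPM. The early B cell list was at 76.6 and 135 CPM. Of its 9 markers, 5 were at 0 in the cells with mitotic members, among them Igll1, and 6 in the others. The B lineage list was at 36.6 and 34.8 CPM, with all 6 markers found in the cells with mitotic members and 2 at 0 in the others. The mature B cell list had no UMI in either set, and the NK list was at 0 and 5.49 CPM. The gates themselves keep barcodes that pass a second gate out of the class, which limits how far these lists can reach. The progenitor list was at 574 CPM against 75.1 CPM, with Prtn3, a protease gene of granulocyte and monocyte precursors, found in 86.05% against 32.3% of cells and Elane, its neighbour in the same granules, in 34.9% against 6.45%. The list did not rise as a whole: of its 7 markers, 2 had no UMI in the cells with mitotic members and 1 had none in the others. Hemoglobin genes were at 10377 against 2563 CPM. The part of these other transcripts and of depth in the result was not tested.

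Mature B cells also held more mitotic transcripts in the leukemic libraries, 44.1, 366 and 1183 CPM in the naive, D11 and D14 libraries, and 37 of 38 members tested were called higher at D14 than in naive (22% of all genes). Here markers of leukemia cells moved with the result. The 15 of 55 cells with at least 3 mitotic members held 98.6% of the mitotic UMIs, and Igll1 was found in 80.0% of them against 7.50% of the other cells, and Vpreb1 in 86.7% against 5%. These shares were not thinned, and the median depths were 36519 UMIs in the former cells and 6125 UMIs in the latter. On the CPM scale the early B cell list was at 1372 against 239 CPM and the mature B cell list at 186 against 1593 CPM. At 1000 UMIs 7.27% of D14 mature B cells had at least 3 mitotic members. The share was 2.44% when barcodes with at least 2 early B cell markers were left out, a setting added after the data were seen. Barcodes with 1 such marker stayed in. At D11, 17 of 26 members tested were called higher than in naive (2.91%). Of 248 such cells, 4 held 89.1% of the mitotic UMIs and 1 held 56.4%, and Cdkn2a stood at 41.9 CPM against 0.401 CPM in naive mature B cells. Whether such barcodes hold 1 cell or more was not tested. In non-classical monocytes, the class that was most abundant of the myeloid cells at D14 after mature neutrophils, 3 of 11 members were called higher at D11 (1.51%) and 8 of 16 at D14 (3.42%), with mitotic sums of 80.9, 143 and 162 CPM. The 16 of 283 cells with at least 3 mitotic members held 60.97% of the mitotic UMIs at D11, 1 cell holding 28.2%, and 35 of 688 cells held 61.4% at D14, 1 cell holding 34.1%.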

How the data were processed

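Single-cell RNA sequencing of peripheral blood gave 1 library for each of 3 conditions. The authors deposited filtered gene by barcode matrices of raw UMI counts. The submitters' processing notes name Cell Ranger 7.1.0 and the mm10 build, and the matrix headers name version 5.0.1, which was not resolved here. Library totals were 30362408, 57640396 and 65861863 UMIs. Barcodes were kept from 200 genes upward if mitochondrial genes took no more than 10% of their UMIs, and were placed in 11 classes by marker gates, and barcodes that passed more than 1 gate were left out. Doublets were not removed, and removal with Scrublet (scanpy 1.11.5) was an alternative. Scrublet's own cut was not used. The barcodes with the highest doublet scores were removed, in a number set by an assumed rate of 0.8% per 1000 kept barcodes. These were 116, 167 and 156 barcodes of the naive, D11 and D14 libraries, and they are the Scrublet doublets named here. Of 32285 gene identifiers, 32235 were placed with the GENCODE vM21 annotation of the same build.

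UMIs were summed per class and library and scaled to CPM. Intervals at 95% are exact Poisson for a level, exact conditional binomial for a ratio and Clopper-Pearson for a share, and p-values were not computed. A gene was called at 2-fold on log2(CPM + 1) when it reached 10 CPM in either class. For shares, each cell was thinned once to 1000 UMIs with a fixed seed and shallower cells were left out. The members, the other gene lists and the gates were chosen with earlier results of these data known. Values in every class were given for the 3 highest members of each group at D14 and for Stmn1 and Hmgb2. In each comparison of leukemia cells with another class the 2 highest and 2 lowest members of each group were named. They were ranked on the log2(CPM + 1) scale, so a member with no UMI in the second class can rank above a larger measured ratio. The members named in host comparisons with naive, and the genes named from the other lists, were chosen after their values were seen. TMM factors were from edgeR 4.0.16 (R 4.3.3), and other work used Python 3.11.15, numpy 2.4.6, scipy 1.17.1, pandas 2.3.3 and matplotlib 3.10.9. On simulated sums modelled on leukemia and T cells at D14 (6119 genes, 200 of them changed), the ratio interval held the true value for 95.8% of genes and 100% of changed genes were called in the right direction. The sums were drawn with Poisson counting error only and the changes were set beyond the 2-fold cut. The genes were taken at T cell levels above the 10 CPM used for calls. How often unchanged genes were called is not reported here. This checks the calculation and cannot show how the intervals perform where few cells hold most UMIs of a class.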

Additional observations from a re-analysis of the deposited data

Results flagged for a closer look

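Classical monocytes and mature neutrophils differed in the direction of their mitotic sum between the D14 and naive libraries, with a ratio of 14.2 in the former and 0.530 in the latter. The difference between the classes was not tested. In mature neutrophils most of the sum was Kif23, and without it, a setting added after seeing the data, their sum was 35.2 CPM in the naive library and 61.9 CPM at D14, a ratio of 1.76 (1.41 to 2.20), so the difference in direction was lost. Barcodes that passed several gates, which enter no comparison, held 950.2 CPM of mitotic members at D14 and 106 CPM in the naive library. In the naive library, from mice without BBC2 cells, 5 barcodes passed the leukemia gate, and 1 of them held 94.1% of their mitotic UMIs.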

How the results depend on the processing

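Of 294 alternative values, 239 stayed within counting error of the value reported or, for counts, within 1.5 times of it. Another 53 fell outside these limits without reversing, some of them nearer to no difference and some further from it, and 2 reversed. The summed ratios of leukemia cells to immature neutrophils, T cells and NK cells lay between 3.19 and 101 throughout. With TMM scaling (factors of 1.78 for leukemia cells and 1.01 for immature neutrophils at D11) the ratios to immature neutrophils were 16.8 (mitotic) and 22.1 (S-phase) at D11 and 9.89 and 10.8 at D14, and those to T cells at D11 were 5.19 and 3.66. Without Kif23, a setting added after seeing the data, the mitotic ratios to immature neutrophils were 101 at D11 and 25.5 at D14, and without ribosomal protein, mitochondrial and hemoglobin genes in the total the D14 one was 20.8. With Scrublet doublets removed, the D11 ratios were 8.30 and 6.23 to T cells and 32.0 and 8.02 to NK cells, and the D11 NK share was 0%. With barcodes of several gates assigned to a class, the ratios to T cells were 6.49 and 4.58 at D11 and 10.6 and 3.19 at D14. With the mean of per-cell CPM, they were 12.7 and 5.80 to T cells and 16.9 (mitotic) to NK cells at D11. The cause of these moves was not tested.

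Alternatives for the change of a class between libraries were all added after seeing the data. The reversals were the D11 to naive mitotic ratio in NK cells, 0.883 with Scrublet doublets removed, and the D14 to naive mitotic ratio in mature neutrophils, 1.76 without Kif23. In leukemia cells the D14 to D11 ratios were 0.967 (mitotic) and 0.729 (S-phase) with TMM scaling, and 0.718 (S-phase) with the mean of per-cell CPM. In T cells the D11 to naive ratios were 1.91 and 1.25 with Scrublet doublets removed and 1.83 and 1.33 with the mean of per-cell CPM, and 2.93 (mitotic) without Kif23 and 1.70 (S-phase) with TMM scaling. In NK cells they were 1.01 (S-phase) with Scrublet doublets removed and 1.48 and 1.17 with the mean of per-cell CPM. Relative to naive at D14, classical monocytes stood at 19.7 (mitotic) without Kif23 and 4.26 (S-phase) with the mean of per-cell CPM, mature B cells at 21.5 and 3.13 with TMM scaling and 10.5 and 1.93 with the mean of per-cell CPM, and mature neutrophils at 0.640 (mitotic) with TMM scaling.

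The leukemia share with mitotic members was 24.0% with all barcodes at D11, 32.3% under a filter of 500 genes and 5% mitochondrial UMIs at D14, 55.5% and 44.9% at 2000 UMIs at D11 and D14, 55.8% and 41.2% when at least 2 members were asked, and 11.5% and 10.8% when at least 5 were. The D14 classical monocyte share was 21.6% at 2000 UMIs, 23.0% with at least 2 members, 2.70% with at least 5 and 9.52% without barcodes holding B-lineage genes, the last a setting added after seeing the data. The immature neutrophil share at D14 was 0% under the stricter cell filter, and the T cell share at D14 was 4.67% with at least 2 members. No paired analysis was possible because each condition has 1 library, and for the same reason no replicate could be left out. Depth limits the classes of few cells, such as NK cells at D14.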
